A study of Mus musculus with 6 samples.

Results

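The stability of cytokine mRNA is set by RNA-binding proteins, and 10 genes encoding such proteins were followed here in mouse neutrophils given the plant polyphenol resveratrol during stimulation with lipopolysaccharide (LPS), a bacterial cell wall component. The genes were listed by name: the tristetraprolin family Zfp36, Zfp36l1 and Zfp36l2, the Regnases Zc3h12a and Zc3h12c, the roquins Rc3h1 and Rc3h2, and Elavl1, Khsrp and Hnrnpd. All 10 were found among the 25663 gene IDs of the count table, and all were among the 13468 genes with enough counts to be tested. The neutrophils were sorted as CD45+CD11b+Ly6G+ cells from bone marrow of C57BL/6 mice and were cultured for 6 hours with LPS plus resveratrol (n = 3) or with LPS alone (n = 3). The labels write the resveratrol amount as 25 μmol, and the series title places the question in hepatic ischemia-reperfusion injury and ERK signalling. No sample without LPS was analysed here, so induction by LPS itself could not be measured. Whether the 3 samples of each group came from different animals is not stated, so p-values rest on a spread between samples that may be only technical.

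Many inflammatory mRNAs carry AU-rich elements in the 3′ untranslated region (UTR). Tristetraprolin and its relatives bind these elements and recruit the CCR4-NOT deadenylase, which shortens the poly(A) tail and exposes the mRNA to decay, and the p38-activated kinase MK2 restrains tristetraprolin by phosphorylation. Regnase-1 (Zc3h12a) is an endonuclease that cuts stem-loops, roquins bind a stem-loop called the constitutive decay element (CDE), KSRP (Khsrp) and AUF1 (Hnrnpd) bind AU-rich mRNA, mostly toward decay, and HuR (Elavl1) binds similar elements and is known for stabilising them. Several of these factors are encoded by mRNAs that carry such elements themselves.

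The following sites are shown because they are the letters these proteins are known to recognise, in the genes' own mRNAs and in Tnf, a textbook target. They were read 5′ to 3′ from GENCODE M21 transcripts (GRCm38), 30 bases each, and T stands for U. Capitals mark the AU-rich heptamer TATTTAT, searched on the mRNA strand with overlapping copies counted.
Zfp36, chromosome 7: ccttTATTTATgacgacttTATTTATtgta
Elavl1, chromosome 8: tTATTTATTTATTTATTTATtttTATTTAT
Tnf, chromosome 17: TATTTATTATTTATTTATTATTTATTTATt
Zfp36l2, chromosome 17: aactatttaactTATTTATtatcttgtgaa
Zfp36l1, chromosome 12: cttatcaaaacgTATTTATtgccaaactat
In the next sites capitals mark TCTGTGA, the loop and innermost pairs of the CDE, which does not overlap the heptamer in these sites.
Tnf, chromosome 17: acagacatgtttTCTGTGAaaacggagctg
Rc3h1, chromosome 1: tagccaataactTCTGTGAagttgcctttt
Rc3h2, chromosome 2: ttttaattaactTCTGTGAagttgtttact
Nfkbid, chromosome 7: ttctaggtgattTCTGTGAaatcgagccca
Zc3h12a, chromosome 4: ggctcacaaacaTCTGTGAtgagatctggt

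The AU-rich heptamer was found in the 3′ UTR of 7 of the 10 genes, against 28.4% of 15527 annotated mouse 3′ UTRs. Elavl1 held 8 copies in 4218 bases, as many as Tnf held in 764 bases, and 0.1% of all 3′ UTRs held at least 8. Zfp36, Zfp36l1, Zfp36l2 and Rc3h2 held 3 each, Zc3h12c and Rc3h1 held 2 each, and none was found in Zc3h12a, Khsrp or Hnrnpd. The genes' 3′ UTRs ran from 774 to 7181 bases, and longer ones hold the heptamer more often, as 55.1% of all 3′ UTRs over 2162 bases held it and 6.0% of those up to 441 bases. TCTGTGA was found in 7 of the 10 genes, against 3102 of the 15527 annotated 3′ UTRs, a comparison made without regard to UTR length. In Rc3h1, Rc3h2, Tnf and Nfkbid the core and its flanks can form a stem of 6 Watson-Crick pairs, found in 0.3% of all 3′ UTRs. Zc3h12a allowed 4 and Zc3h12c 3, while Zfp36l1, Khsrp and Hnrnpd allowed only the 2 inside TCTGTGA itself. The Rc3h1 and Rc3h2 sites shared a run of 17 letters. These matches describe letters in an annotation and are not measured binding sites.

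Total counts were 18799235, 18478832 and 19928153 in the LPS+resveratrol libraries and 18141352, 18561974 and 18687052 in the LPS libraries. LPS+resveratrol replicate 1 stood apart, with correlations of 0.96 to 0.969 to the other libraries across genes, while each of those had a highest correlation of at least 0.993. Against replicates 2 and 3 of its group, its median deviation was −0.30 (log2) for genes with transcripts under 1 kb and 0.33 for those over 4 kb, and −0.36 for GC contents over 55% and 0.26 for those under 45%. Fold changes are therefore given with and without this library. Markers of neutrophils were abundant, at a summed 31200 to 56500 CPM in LPS+resveratrol and 48700 to 52200 CPM in LPS samples. The low end, 31200 CPM, was that of LPS+resveratrol replicate 1. Of these 10 markers none passed over 6 samples, and 6 rose without replicate 1, where 12.1% of all tested genes rose. CPM stands for counts relative to the TMM-scaled library total.

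The transcripts of the decay and stability factors differed little between cells given resveratrol and cells given LPS alone. Over 6 samples none of the 10 passed the test (edgeR quasi-likelihood test, adjusted p under 0.05), against 1.83% of all tested genes called by edgeR (0.668% higher and 1.17% lower). An unadjusted edgeR p under 0.05 was found for 1 of the 10, against 2682 of the 13468 tested genes. None of the 10 passed with DESeq2, which called 820 of all tested genes, or with limma-voom, which called 235. Without LPS+resveratrol replicate 1, Rc3h2 rose and Zfp36l1 and Zfp36l2 fell, so that 3 of 10 passed, against 25.4% of all tested genes (12.1% higher and 13.3% lower). That share is near the background and is no result about the group of genes. Their median log2 fold change was 0.04 over 6 samples and −0.04 without that library, beside medians of −0.004 and −0.007 over all tested genes. The 95% intervals of the 10 fold changes lay within 1.5-fold for 7 genes over 6 samples. Those of Zfp36, Rc3h1 and Rc3h2 reached beyond it, and the bounds of the 10 ran from −0.64 to 0.78 (log2). In the comparison without replicate 1 all 10 intervals lay within 1.5-fold, and their bounds ran from 0.77-fold to 1.27-fold.

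**Figure D1:**
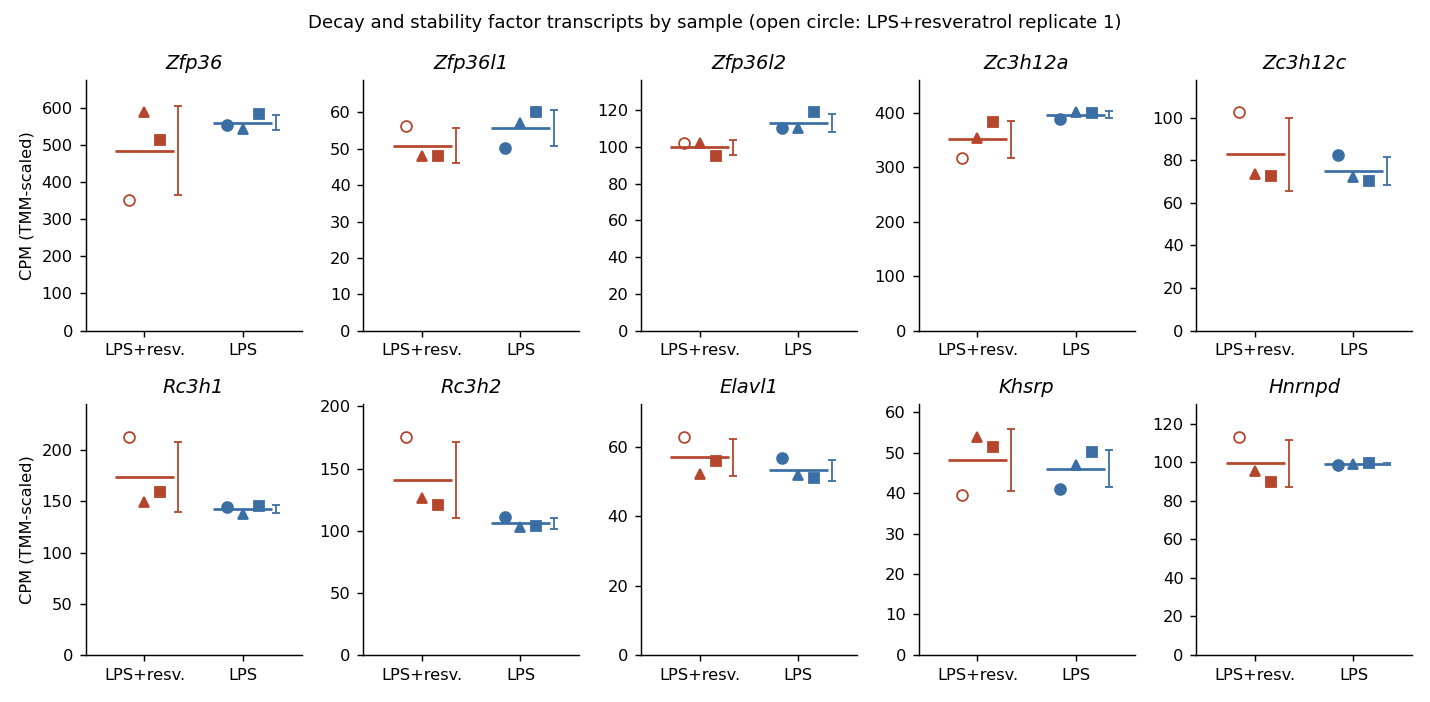
Level of each transcript in every sample, as TMM-scaled CPM (y axis, from 0), in LPS+resveratrol (left, red) and LPS (right, blue) samples; shapes are replicate numbers, horizontal lines are means and brackets are SD over 3 samples. The open circle, LPS+resveratrol replicate 1, is the highest of 6 values for 5 genes and the lowest for 3.

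Tristetraprolin, encoded by Zfp36 (ENSMUSG00000044786), is the best known destabiliser of Tnf mRNA. It was counted at 352.3, 588.1 and 514.2 CPM in LPS+resveratrol replicates 1 to 3, against 555.6, 543.5 and 583.9 CPM in LPS replicates 1 to 3. Replicate 1 lay far below every other sample, and the remaining LPS+resveratrol values straddled the LPS values. The log2 fold change was −0.21 ± 0.183 (SE, edgeR adjusted p = 0.545) over 6 samples and −0.03 ± 0.057 (edgeR adjusted p = 0.718) without replicate 1, where the 95% interval was −0.15 to 0.08.

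The relatives Zfp36l1 and Zfp36l2, which bind the same heptamer, fell in the comparison without LPS+resveratrol replicate 1 and did not pass over 6 samples. Zfp36l2 (ENSMUSG00000045817) was at 102.0, 102.0 and 95.27 CPM in LPS+resveratrol samples and at 110.2, 110.6 and 118.8 CPM in LPS samples. All LPS+resveratrol values lay below all LPS values, replicate 1 included. The difference was −0.18 ± 0.0956 (log2, SE, edgeR adjusted p = 0.333) over 6 samples. Without replicate 1 Zfp36l2 fell by 13.4%, and its log2 level fell by 0.21 ± 0.0559 (edgeR adjusted p = 0.00468), and this call was lost when LPS replicate 3 (adjusted p = 0.0583) or LPS+resveratrol replicate 3 (adjusted p = 0.151) was also left out.

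Zfp36l1 (ENSMUSG00000021127) was at 56.4, 48.09 and 48.02 CPM in LPS+resveratrol samples and at 50.26, 57.06 and 60.01 CPM in LPS samples. The groups overlapped through LPS+resveratrol replicate 1, the highest of its group, and LPS replicate 1, the lowest of its own. The log2 fold change was −0.13 ± 0.122 (edgeR adjusted p = 0.561) over 6 samples and −0.22 ± 0.0755 (edgeR adjusted p = 0.0249) without replicate 1, when Zfp36l1 fell by 14.4%. That call was lost with DESeq2 (adjusted p = 0.0724), and with edgeR without LPS replicate 3 (adjusted p = 0.163), LPS+resveratrol replicate 2 (adjusted p = 0.109) or LPS+resveratrol replicate 3 (adjusted p = 0.127). On the opposite strand, the noncoding Gm26669 shares 55.92% of the exon bases of Zfp36l1 in GENCODE M21, and the strand setting of the counting is not given in the sources used here, so reads of the shared bases cannot be told apart. Gm26669 itself was counted at 2, 13 and 11 in LPS+resveratrol and 12, 16 and 23 in LPS samples, against 891 to 1146 counts per sample for Zfp36l1. A pseudogene, Zfp36l1-ps, is annotated as well, and how reads matching several places were counted is not given in the sources used here.

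Per kilobase of transcript, Zfp36 made up 64.3%, 76.8% and 74.9% of the summed level of the 3 family members in LPS+resveratrol samples and 74.7%, 72.8% and 73% in LPS samples (two-sided exact permutation test, p = 1, smallest possible 0.1). The mean shares, 72% in LPS+resveratrol and 73.5% in LPS samples, differed by less than the spread within the LPS+resveratrol group, and without replicate 1 the exact p was 0.2, or 0.1, the smallest possible, with the longest transcripts. The share of Zfp36l2 was 13.9%, 9.91% and 10.3% in LPS+resveratrol samples and 11%, 11% and 11.1% in LPS samples (exact permutation p = 1), with p = 0.1 without replicate 1 by either length.

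The Regnases share a nuclease domain and a zinc finger. Regnase-1, encoded by Zc3h12a (ENSMUSG00000042677), was at 316.1, 354.3 and 383 CPM in LPS+resveratrol samples and at 389.1, 400.5 and 399.3 CPM in LPS samples. The LPS+resveratrol values all lay below the LPS values, the highest of them by little. Its log2 fold change was −0.17 ± 0.105 (edgeR adjusted p = 0.39) over 6 samples and −0.11 ± 0.0547 (edgeR adjusted p = 0.132) without replicate 1, where the 95% interval was −0.22 to −0.002.

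Zc3h12c (ENSMUSG00000035164), a relative of Regnase-1 with less known targets, was at 102.4, 73.4 and 72.39 CPM in LPS+resveratrol samples and at 82.61, 72.21 and 70.43 CPM in LPS samples. Apart from replicate 1 in each group the values were nearly level, and the groups overlapped. The log2 fold change was 0.14 ± 0.161 (edgeR adjusted p = 0.651) over 6 samples and −0.05 ± 0.0673 (edgeR adjusted p = 0.634) without LPS+resveratrol replicate 1, a change of sign. Per kilobase, Zc3h12a took 87.8%, 91.9% and 92.5% of the pair's level in LPS+resveratrol samples and 91.7%, 92.8% and 93% in LPS samples (two-sided exact permutation test, p = 0.3, and p = 0.6 without replicate 1).

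For the roquins, and for no other gene of the 10, every LPS+resveratrol value lay above every LPS value. Rc3h2 (roquin-2, ENSMUSG00000075376) was at 175.6, 126.4 and 120.3 CPM in LPS+resveratrol samples and at 111.1, 102.9 and 104 CPM in LPS samples. Replicate 1 was the highest by far, and the groups stayed apart without it. The log2 fold change was 0.41 ± 0.158 (edgeR adjusted p = 0.22) over 6 samples. Without replicate 1 Rc3h2 rose by 15.6%, and its log2 level rose by 0.21 ± 0.0546 (edgeR adjusted p = 0.00354), and the call was lost when LPS+resveratrol replicate 2 was also left out (adjusted p = 0.116).

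Rc3h1 (roquin-1, ENSMUSG00000040423) was at 213.1, 149.4 and 159.2 CPM in LPS+resveratrol samples and at 144.7, 138 and 145.4 CPM in LPS samples. The gap between the groups was narrow once replicate 1 was set aside. The log2 fold change was 0.29 ± 0.148 (edgeR adjusted p = 0.328) over 6 samples and 0.10 ± 0.0512 (edgeR adjusted p = 0.14) without replicate 1. Rc3h2 made up 40.4%, 41% and 38.3% of the roquin level per kilobase in LPS+resveratrol samples and 38.7%, 38% and 37.1% in LPS samples (two-sided exact permutation test, p = 0.2, and p = 0.3 without replicate 1). The share depends on the length used, as with the longest transcripts it averaged 49.8% in LPS+resveratrol and 47.7% in LPS samples. The roquin transcripts, whose own CDE letters are shown above, are also the longest and among the poorest in GC of the 10, with median transcript lengths of 7241 bases for Rc3h1 and 8799 bases for Rc3h2.

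HuR, encoded by Elavl1 (ENSMUSG00000040028), was level between the groups, at 62.86, 52.24 and 55.77 CPM in LPS+resveratrol samples and 56.64, 51.77 and 51.11 CPM in LPS samples. Its groups overlapped, and the log2 fold change was 0.10 ± 0.114 (edgeR adjusted p = 0.649) over 6 samples and 0.01 ± 0.0725 (edgeR adjusted p = 0.919) without replicate 1. Khsrp (ENSMUSG00000007670) was at 39.55, 53.97 and 51.33 CPM in LPS+resveratrol samples and at 41.17, 46.97 and 50.16 CPM in LPS samples. LPS+resveratrol replicate 1 was its lowest sample, and the other LPS+resveratrol values lay just above all LPS values. The log2 fold change of Khsrp was 0.07 ± 0.15 (edgeR adjusted p = 0.825) over 6 samples and 0.18 ± 0.0777 (edgeR adjusted p = 0.0828) without replicate 1.

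Hnrnpd (ENSMUSG00000000568) was at 113.2, 95.58 and 89.62 CPM in LPS+resveratrol samples and at 98.62, 99.01 and 99.39 CPM in LPS samples. The LPS values were almost equal and the LPS+resveratrol values lay on either side of them, replicate 1 above and the others below. Its log2 fold change was 0.01 ± 0.116 (edgeR adjusted p = 0.981) over 6 samples and −0.11 ± 0.0556 (edgeR adjusted p = 0.171) without replicate 1.

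**Figure D2:**
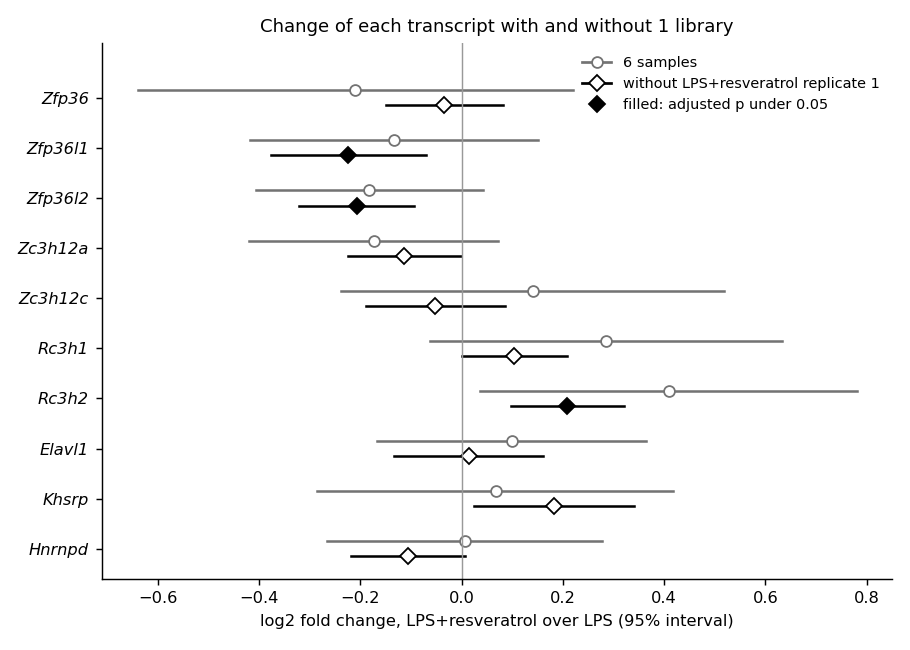
Log2 fold change of LPS+resveratrol over LPS (x axis) for each gene, with 95% intervals, over 6 samples (grey circles) and without LPS+resveratrol replicate 1 (black diamonds, filled where the edgeR adjusted p is under 0.05). No circle is filled, and the filled diamonds are Zfp36l1 at −0.22, Zfp36l2 at −0.21 and Rc3h2 at 0.21.

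The groups did not overlap for 4 of the 10 genes over 6 samples (Zfp36l2 and Zc3h12a lower, Rc3h1 and Rc3h2 higher), against 33.3% of all tested genes. Without replicate 1 they did not overlap for 7 of 10, against 49.9% of all tested genes. The added genes were Khsrp, higher, and Zfp36l1 and Hnrnpd, lower.

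LPS+resveratrol replicate 1 was the highest of 6 samples for 5 of these genes and the lowest for 3. On the log2 scale it lay 0.47 above the mean of replicates 2 and 3 for Rc3h1, 0.51 above for Rc3h2 and 0.49 above for Zc3h12c, the longest transcripts of the group. Its deviation was −0.64 for Zfp36, −0.41 for Khsrp and −0.22 for Zc3h12a, whose GC contents of 54.8%, 58.7% and 57.1% are high. Zfp36l1 and Zfp36l2, with GC contents of 54.6% and 54.8%, deviated by 0.23 and 0.05, Elavl1 by 0.22 and Hnrnpd by 0.29. With offsets for transcript length and GC content, the log2 fold changes over 6 samples shrank to 0.12 for Rc3h2 (edgeR adjusted p = 0.474) and 0.015 for Rc3h1 (edgeR adjusted p = 0.935). Those of Zfp36l1 (0.033), Zc3h12c (−0.134), Elavl1 (−0.103) and Hnrnpd (−0.025) changed sign. With the same offsets but without replicate 1, Rc3h2 still passed at 0.16 (edgeR adjusted p = 0.0234), and Rc3h1 stood at 0.053 (edgeR adjusted p = 0.474).

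**Figure D3:**
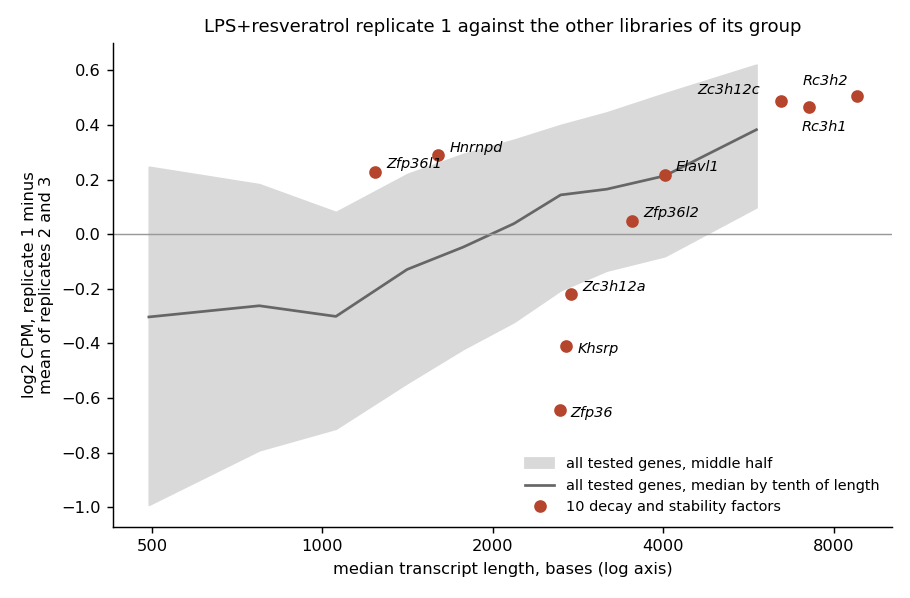
Deviation of LPS+resveratrol replicate 1 from the mean of replicates 2 and 3 (y axis, log2 CPM) against median transcript length in bases (x axis, log scale), for the 10 genes (red points) and all tested genes (grey line, median of genes binned by length; band, middle 50%). Rc3h1, Rc3h2 and Zc3h12c sit at 0.47 to 0.51 on the right, and Zfp36 is lowest at −0.64.

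Levels of different genes were compared per kilobase of median transcript length. Zfp36 stood highest at 185 ± 45.9 CPM per kilobase in LPS+resveratrol and 214 ± 7.88 in LPS samples (SD, n = 3 each), followed by Zc3h12a at 127 ± 12.2 in LPS+resveratrol and 144 ± 2.27 in LPS samples. In LPS+resveratrol samples the mean levels per kilobase went on with Hnrnpd at 62, Zfp36l1 at 41, Zfp36l2 at 28.3, Rc3h1 at 24, Khsrp at 17.9, Rc3h2 at 16, Elavl1 at 14.1 and Zc3h12c at 12.8 CPM. In LPS samples the order was the same but for Elavl1 and Rc3h2, with Hnrnpd at 61.7, Zfp36l1 at 45, Zfp36l2 at 32.1, Rc3h1 at 19.7, Khsrp at 17.1, Elavl1 at 13.2, Rc3h2 at 12 and Zc3h12c at 11.6 CPM. In LPS samples the ranges of neighbours in the order overlapped only for Rc3h2 and Zc3h12c, whereas in LPS+resveratrol samples they also overlapped for Zfp36 and Zc3h12a, for Zfp36l2 and Rc3h1, and among the 4 lowest. The order below Zc3h12a depends on the length used, and the levels of Hnrnpd, Zfp36l1 and Rc3h1 moved by over 1.5 times. With the longest transcript, Hnrnpd was at 14.6 in LPS+resveratrol and 14.5 in LPS samples, in CPM per kilobase. Zfp36l1 was then at 17 in LPS+resveratrol and 18.7 in LPS samples, and Rc3h1 at 15.8 in LPS+resveratrol and 13 in LPS samples. By CPM, not per length, all 10 lay between the 74.8th and 97.8th percentile of tested genes, with 723 to 11150 counts per sample.

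**Figure D4:**
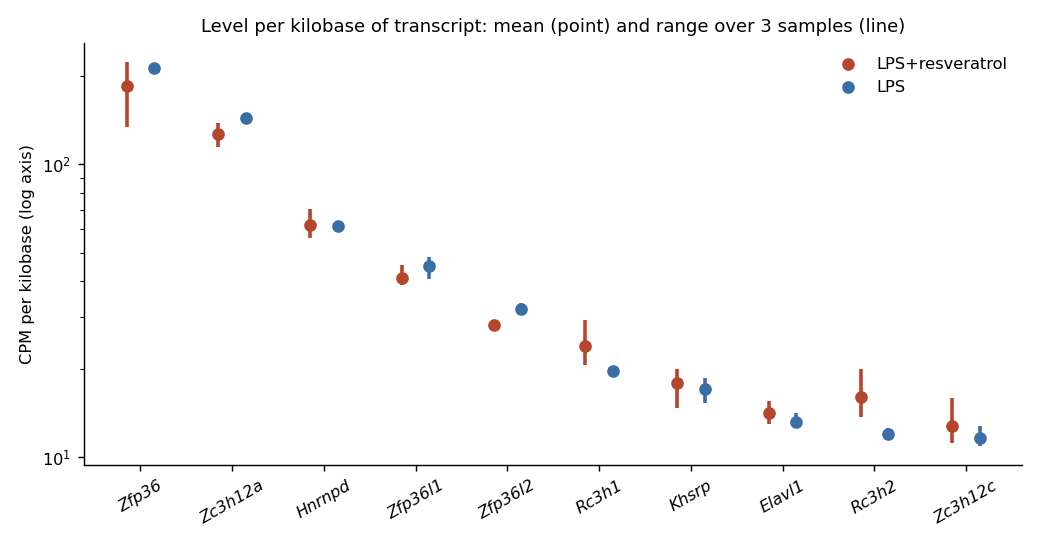
Level per kilobase of median transcript length (y axis, CPM per kilobase, log scale) for each gene, with LPS+resveratrol (red) left of LPS (blue); points are means and lines the range over 3 samples. Zfp36 and Zc3h12a stand above the rest in both groups.

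The transcripts most like Zfp36 across the 6 samples, by Pearson correlation of log2 CPM among 6734 genes at or above the median level, were Cyth2, B3gat3 and Bcat2, each with r = 0.996. Those most like Zc3h12a were Cenpl (r = 0.994), Pxn (r = 0.99) and Capzb (r = 0.99). All 6 were lowest in LPS+resveratrol replicate 1, as Zfp36 and Zc3h12a were. Between Zfp36 and Zc3h12a themselves r was 0.81, and between the roquins 0.96. These values describe 6 samples of which that library is the most extreme.

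The other genes of the decay pathway were taken from 6 lists, of which 91 of 95 genes were tested. Over 6 samples 2 passed (edgeR adjusted p under 0.05), both higher, against 1.83% of all tested genes. At an unadjusted edgeR p under 0.05 were 15 of the 91, against 2682 of the 13468 tested genes. Without replicate 1, 10 were higher and 11 lower, 23.1% of the 91 against 25.4% of all tested genes. The median log2 fold change of the 91 was −0.01 in both comparisons.

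Of 17 genes of deadenylation, the step tristetraprolin triggers, Tob1 rose and none fell over 6 samples. Tob1, an adaptor that links RNA-binding proteins to the CCR4-NOT deadenylase, was at 68.05, 53.48 and 54.03 CPM in LPS+resveratrol samples and at 36.27, 35.32 and 33.83 CPM in LPS samples. The groups lay well apart. Its log2 fold change was 0.74 ± 0.128 (edgeR adjusted p = 0.0408) over 6 samples and 0.61 ± 0.0736 (edgeR adjusted p = 3.8e-08) without replicate 1. The 6-sample call of Tob1 was lost with the replicate block (adjusted p = 0.131) and on leaving out any of the other 5 libraries. In those fits no tested gene passed, and Tob1 stood at 0.709 to 0.797. Btg2, a relative of Tob1 named after its values were seen, rose by 0.37 ± 0.0521 (edgeR adjusted p = 7.52e-07) without replicate 1 and stood at 0.16 ± 0.204 (edgeR adjusted p = 0.678) over 6 samples. The median log2 fold change of the list was 0.15 over 6 samples and 0.07 without replicate 1, and the 10 tested Cnot subunits passed in neither comparison.

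Decapping and 5′-3′ decay held 15 genes, of which none passed over 6 samples with edgeR, DESeq2 or limma-voom (4 at an unadjusted edgeR p under 0.05) and 1 rose and 2 fell without replicate 1. Those calls made up 20% of the list, against 25.4% of all tested genes. The most abundant genes of the list were named. Ddx6, a helicase that couples deadenylation to decapping, was at 960, 771.6 and 817 CPM in LPS+resveratrol samples and at 697.4, 667.9 and 693.8 CPM in LPS samples, with no overlap. It stood at 0.31 ± 0.112 (log2, edgeR adjusted p = 0.2) over 6 samples and rose by 0.20 ± 0.051 (edgeR adjusted p = 0.00264) without replicate 1, a call lost when LPS+resveratrol replicate 3 was also left out (adjusted p = 0.129). The exonuclease Xrn1 was at 102.5, 70 and 70.5 CPM in LPS+resveratrol samples and at 85.61, 87.8 and 80.38 CPM in LPS samples, so replicate 1 was highest of all and the others lowest. Xrn1 stood at −0.06 ± 0.166 (log2, edgeR adjusted p = 0.854) over 6 samples and fell by 0.28 ± 0.0613 (edgeR adjusted p = 0.000662) without replicate 1. The third call was Lsm4, of the decapping-associated Lsm ring, which stood at −0.75 ± 0.228 over 6 samples (edgeR adjusted p = 0.147), fell by 0.54 ± 0.127 without replicate 1 (edgeR adjusted p = 0.00129) and was named after its values were seen.

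Among 14 tested genes of the RNA exosome and its cofactors, which degrade RNA from the 3′ end, none passed in either comparison with edgeR. Without replicate 1, 25.4% of all tested genes passed. None of the 14 passed over 6 samples with DESeq2 or limma-voom (0 at an unadjusted edgeR p under 0.05), and the median log2 fold changes were −0.19 over 6 samples and −0.09 without replicate 1. The most abundant were the helicase Skiv2l, at −0.18 ± 0.183 over 6 samples and −0.004 ± 0.0571 without replicate 1, and the nuclease Exosc10, at 0.14 ± 0.172 over 6 samples and −0.09 ± 0.0791 without replicate 1. Of 14 other RNA-binding regulators, none passed over 6 samples with edgeR (1 at an unadjusted p under 0.05, 1 with DESeq2, 0 with limma-voom), and 1 rose and 2 fell without replicate 1. Those calls were 21.4% of the list, against 25.4% of all tested genes. N4bp1, a nuclease related to the Regnases and the most abundant gene of that list, averaged 1066 ± 179 CPM in LPS+resveratrol and 1031 ± 10.2 CPM in LPS samples (SD, n = 3 each) and did not pass with edgeR in either comparison. Zc3hav1, an antiviral zinc finger protein, fell by 0.19 ± 0.0528 (log2, edgeR adjusted p = 0.00721) without replicate 1, though its replicate 1 value of 560 CPM was the highest of all samples. Over 6 samples Zc3hav1 stood at −0.03 ± 0.133 (edgeR adjusted p = 0.913), and its call without replicate 1 was lost when LPS+resveratrol replicate 2 (adjusted p = 0.0751) or 3 (adjusted p = 0.0615) was also left out. The Regnase relative Zc3h12d, named after its values were seen, was at 6.784, 7.879 and 6.831 CPM in LPS+resveratrol samples and at 12.63, 11.65 and 10.11 CPM in LPS samples. It stood at −0.68 ± 0.148 over 6 samples (edgeR adjusted p = 0.0741) and fell by 0.65 ± 0.137 without replicate 1 (edgeR adjusted p = 0.00036).

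The signalling list held 16 genes that act on the decay factors, and 3 rose and 3 fell without replicate 1. That was 37.5% of the list against 25.4% of all tested genes, a difference that was not tested. Over 6 samples none passed with edgeR (3 at an unadjusted p under 0.05, 1 with DESeq2, 0 with limma-voom). Mapkapk2 encodes MK2, the kinase that phosphorylates tristetraprolin. It was at 1232, 1638 and 1795 CPM in LPS+resveratrol samples and at 1409, 1479 and 1334 CPM in LPS samples, overlapping only through replicate 1. Mapkapk2 stood at 0.14 ± 0.15 (log2, edgeR adjusted p = 0.614) over 6 samples and rose by 0.28 ± 0.0504 (edgeR adjusted p = 5.14e-05) without that library. Other calls, named after their values were seen, included Mapk14 (p38α, 0.18 ± 0.0544), which rose, and Mapkapk3 (−0.33 ± 0.054), Mapk3 (ERK1, −0.16 ± 0.0485) and Ikbkb (−0.17 ± 0.0605), which fell, all as log2 fold changes without replicate 1. Over 6 samples these stood at 0.26 ± 0.105 (Mapk14), −0.35 ± 0.0937 (Mapkapk3), −0.10 ± 0.0964 (Mapk3) and 0.015 ± 0.15 (Ikbkb), the last with the opposite sign. Ywhaz, a 14-3-3 protein of the family that binds phosphorylated tristetraprolin, averaged 597.7 ± 61.5 CPM in LPS+resveratrol and 604.1 ± 7.18 CPM in LPS samples (SD, n = 3 each) and passed in neither comparison with edgeR.

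Of 18 known target mRNAs 15 were tested, since Csf2, Icos and Il2 had too few counts. Il10, an anti-inflammatory cytokine whose 3′ UTR holds 4 heptamers, was at 133, 197.7 and 205.7 CPM in LPS+resveratrol samples and at 91.43, 86.99 and 88.29 CPM in LPS samples. All LPS+resveratrol values exceeded all LPS values. Il10 rose by 1.01 ± 0.172 (log2, edgeR adjusted p = 0.038) over 6 samples and by 1.17 ± 0.051 (edgeR adjusted p = 5.43e-19) without replicate 1, and the 6-sample call was lost with the replicate block (adjusted p = 0.123) and on leaving out any of the other 5 libraries. No tested gene passed in those fits, where Il10 stood at 0.874 to 1.029. It was the single call of the list over 6 samples, and without replicate 1 there were 3 higher and 4 lower. Those made up 46.7% of the 15 against 25.4% of all tested genes, a difference that was not tested.

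The remaining target calls were named after their values were seen and rest on the comparison without replicate 1. Higher were Il6 (0.49 ± 0.121) and Ccl3 (0.14 ± 0.0484), and lower were Tnf (−0.22 ± 0.0557), Ier3 (−0.50 ± 0.0597), Ptgs2 (−0.81 ± 0.0666) and Dusp1 (−0.29 ± 0.0555), all as log2 fold changes. Over 6 samples none of these passed, at 0.27 ± 0.242 for Il6, −0.25 ± 0.0993 for Tnf, −0.79 ± 0.295 for Ier3, −0.675 ± 0.131 for Ptgs2 and −0.38 ± 0.125 for Dusp1. Ccl3, at −0.03 ± 0.17 over 6 samples, had the opposite sign there. Heptamers stood in mRNAs of both directions, with 8 in Tnf, 6 in Ptgs2, 4 in Ier3 and 3 in Dusp1 among those that fell, and 4 in Il10, 1 in Il6 and 1 in Ccl3 among those that rose. Tested targets that passed in neither comparison held them too, with 7 in Cxcl2, 6 in Cxcl1, 5 in Il23a, 3 in Il1b and 1 in Il12b. Nfkbiz, Nfkbid and Tnfrsf4, which did not pass either, held none. Steady-state levels do not separate synthesis from decay, and mRNA half-lives were not measured.

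**Figure D5:**
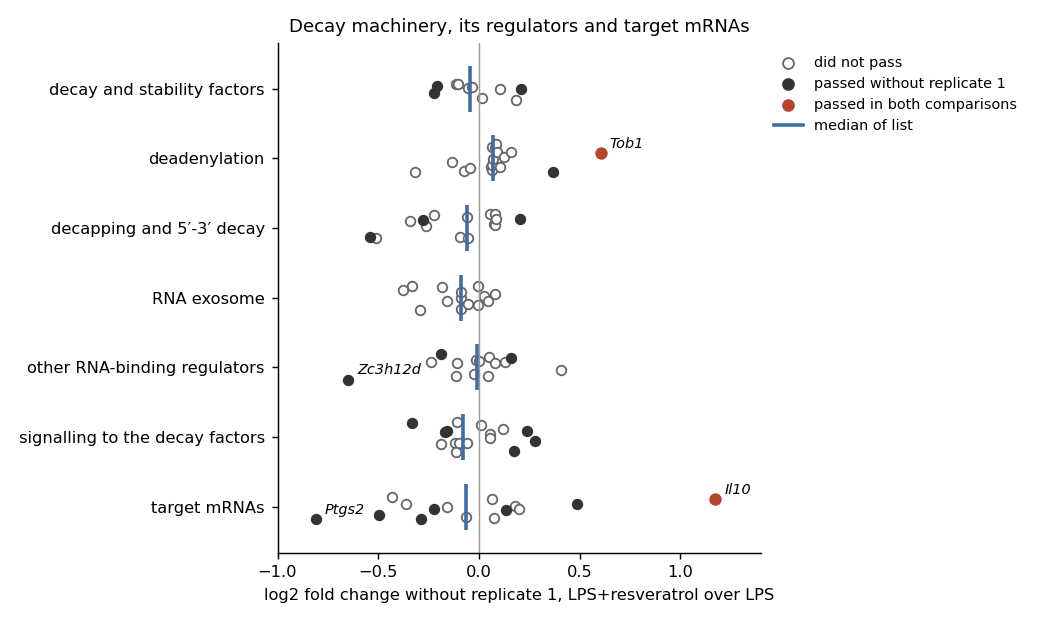
Log2 fold change of LPS+resveratrol over LPS without LPS+resveratrol replicate 1 (x axis) for the tested genes of each list (points); filled points have an edgeR adjusted p under 0.05, red ones also over 6 samples, and blue bars are list medians. Tob1 at 0.61 and Il10 at 1.17 are the red points, and the decay and stability factors lie between −0.22 and 0.21.

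Markers of other cells were detected in both groups, none of the tested ones at 0, and some moved. Among all tested genes 1.83% passed over 6 samples, while 12.1% rose and 13.3% fell without replicate 1. The 4 early granulocyte genes Mpo, Elane, Prtn3 and Ctsg summed to 149 to 224 CPM in LPS+resveratrol and 319 to 352 CPM in LPS samples, and 1 fell over 6 samples and all 4 without replicate 1. Of 6 monocyte and macrophage genes none passed over 6 samples, and 1 rose and 4 fell without replicate 1, at sums of 2480 to 2720 CPM in LPS+resveratrol and 2530 to 2580 CPM in LPS samples. The 5 B cell genes summed to 76.7 to 118 CPM in LPS+resveratrol and 120 to 129 CPM in LPS samples, and the 5 eosinophil and basophil genes to 57 to 90.9 CPM in LPS+resveratrol and 103 to 105 CPM in LPS samples. In each of these lists none passed over 6 samples and 2 fell without replicate 1. The 5 T cell genes summed to 7.24 to 10.4 CPM in LPS+resveratrol and 8.68 to 10.5 CPM in LPS samples, and the 3 tested erythroid genes to 8.7 to 77.4 CPM in LPS+resveratrol and 58.2 to 72.1 CPM in LPS samples, with 1 of each lower without replicate 1. Replicate 1 gave the low end of the LPS+resveratrol range in each of these lists except T cells, where it gave the high end, 10.4 CPM. The part of these cells in the changes of Zfp36l1, Zfp36l2 and Rc3h2 was not tested, and in such bulk samples fewer cells of a type and less RNA per cell cannot be told apart.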

How the data were processed

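The table deposited by the authors gives counts, unnormalized whole numbers, for each Ensembl gene in 6 samples forming 2 groups of 3. The submitters' processing notes name Bowtie 0.12.2 and the genome build mm8. Which program and annotation counted the reads, and with which strand setting, is not given in the sources used here. Per the labels' protocols, library preparation used the TruSeq RNA kit. The series design names duplicates, although the labels hold 3 samples per group.

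Of 25663 IDs, 25595 were matched to a symbol in GENCODE M21 (GRCm38), which also gave transcript lengths, GC content and 3′ UTR letters (the longest 3′ UTR of a gene). The builds differ, so no coordinates are printed. Genes were kept by filterByExpr (minimum count 10), scaled by TMM and fitted in R 4.3.3 with edgeR 4.0.16 (robust quasi-likelihood test, two-sided, group as the only term), with Benjamini-Hochberg adjustment over 13468 genes and a threshold of 0.05. The fit was repeated on the same genes without LPS+resveratrol replicate 1. The biological coefficient of variation was 19.8% with and 7.43% without that library. The scripts were tested on simulated data. Alternatives were DESeq2 1.42.0, limma-voom (limma 3.58.1), median-of-ratios factors, unscaled totals, other count filters, the replicate block, library quality weights, length and GC offsets, and leaving out each sample. Those for the 5 samples with limma-voom or offsets, the further left-out samples there, and levels by longest transcript were added after seeing the data. Each sample was counted separately. No 2 samples of a group agreed within sampling noise (chi-square per degree of freedom at least 3.29), which does not show that they came from different animals or cultures.

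The 10 genes and the pathway lists were chosen with earlier results of these data known. Named from each pathway list are up to 4 genes with the smallest adjusted p among those that passed over 6 samples or, where none passed, the 2 most abundant. Also named are the 3 genes most correlated with Zfp36 and with Zc3h12a. The labels name no shared source of same-numbered samples, so no block was used in the main fit. Deviations from group means of same-numbered samples correlated at 0.049, 0.016 and −0.007. These values cannot decide whether such samples shared a source, since LPS+resveratrol replicate 1 dominates the deviations of its group. The values of 1 gene of the signalling list are not reported here.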

Additional observations from a re-analysis of the deposited data

How the results depend on the processing

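The number of decay and stability factors called over 6 samples was 0 with edgeR and with every alternative over all 6 samples except library quality weights, which called 2 (Zfp36l2 and Rc3h2). Leaving out 1 sample gave 0 to 3. Over all genes the 247 calls became 820 with DESeq2 (370 higher), 392 without a low-count filter, 604 with length and GC offsets, 3067 with library quality weights and 0 with the replicate block, and 0 to 3420 on leaving out 1 sample, 0 each time LPS+resveratrol replicate 1 stayed in. With the replicate block 2287 genes had an unadjusted p under 0.05. Whether same-numbered samples shared a source could not be decided from these data. Pathway calls (2) became 5 with DESeq2, 4 with offsets, 17 with quality weights, 0 with the replicate block and 0 to 21 on leaving out 1 sample. Without LPS+resveratrol replicate 1, leaving out a further sample gave 1 to 3 factors (3), 2097 to 3300 genes (3420) and 13 to 24 pathway genes (21).

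Signs turned for several genes, among them Zfp36l1, Xrn1 and Zc3hav1, whose falls without LPS+resveratrol replicate 1 had passed. Over all 6 samples signs turned for Zfp36l1 (0.033 with offsets), Zc3h12c (−0.030 with quality weights, −0.134 with offsets), Elavl1 (−0.103 with offsets), Exosc10 (−0.064 with quality weights), N4bp1 (−0.091 with quality weights, −0.125 with offsets) and Ywhaz (0.058 with offsets). Hnrnpd stood at −0.001 with limma-voom and with the replicate block, −0.030 unscaled, −0.013 without a filter, −0.092 with quality weights and −0.025 with offsets. On leaving out 1 of the 6 samples, Zc3h12c ran from −0.052 to 0.219, Khsrp from −0.021 to 0.182, Hnrnpd from −0.106 to 0.050, Xrn1 from −0.277 to 0.032, Exosc10 from −0.088 to 0.240, N4bp1 from −0.108 to 0.123, Zc3hav1 from −0.186 to 0.040 and Ywhaz from −0.113 to 0.025. Without LPS+resveratrol replicate 1, Elavl1 was −0.003 unscaled and −0.029 with offsets, and Skiv2l 0.002 with DESeq2 and with median-of-ratios factors and 0.036 with offsets. Leaving out a further sample there gave Zfp36 −0.139 to 0.055, Zc3h12c −0.087 to 0.026, Elavl1 −0.038 to 0.065 and Skiv2l −0.070 to 0.051. In that comparison Khsrp passed with offsets (0.22, edgeR adjusted p = 0.0288) and without LPS replicate 3 (0.26, adjusted p = 0.0244), N4bp1 passed unscaled (adjusted p = 0.0463), with limma-voom (adjusted p = 0.0483) and with offsets (adjusted p = 0.0246), Ywhaz passed with offsets (−0.13, adjusted p = 0.0448), and the call of Zfp36l1 was lost with offsets (adjusted p = 0.0645). No cause was tested.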
